A study of Homo sapiens with 12 samples.

Results

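The effect of GLUP treatment was examined in HGC-27 libraries labelled TEAD4KO, by setting the 3 libraries treated with GLUP against the 3 untreated libraries of the same genotype label. These are 6 of the 12 RNA-seq libraries of the series, and they were chosen by their labels. HGC-27 is an undifferentiated human gastric cancer cell line that grew from a lymph node metastasis. The other 6 libraries come from HGC-27 cells with no edit in their labels (WT), 3 untreated and 3 with GLUP. Control wells were given the stock buffer of the peptide, although the label reads none. The labels give neither dose nor duration, and the sources disagree on the duration, so no time is attached to the values. The sources used here do not say whether the cells labelled TEAD4KO are 1 clone or a pool. The labels do not say whether the 3 libraries of a group came from separate cultures, so p-values measure the spread between libraries only, which may be technical.

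TEAD4 is a DNA-binding factor at the end of the Hippo pathway. It binds M-CAT elements in promoters and enhancers, and it activates transcription of genes for growth and matrix when the co-activators YAP and TAZ are in the nucleus, while VGLL4 competes with them for the same surface. GLUP is a cyclic peptide designed to bind TEAD4 and to bring TEAD4 molecules together, and the comparison in cells labelled TEAD4KO asks what the peptide does to transcripts where its target was meant to be missing.

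The values are FPKM, which scale fragments to transcript length and to the mapped fragments of a library. The FPKM totals of the 6 libraries ranged from 397320.7 to 423756.7, and the depth behind them is unknown. The TEAD4 transcript was not lower in these libraries. It had 30.1, 27.7 and 27.2 FPKM in the untreated libraries and 27.8, 29.4 and 26 FPKM in the GLUP libraries, all above the 22.9 to 25.8 FPKM of the 6 WT libraries. The transcript level alone does not tell whether the edit named in the label is present, so "libraries labelled TEAD4KO" is used throughout. Whether TEAD4 protein was missing was not analysed here.

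Epithelial and mesenchymal markers were mixed. Of the 8 epithelial markers, KRT18, KRT19, EPCAM and CLDN4 were under 1 FPKM in each of the 6 libraries, whereas MUC1 (7.12 to 9.53 FPKM), KRT8 (4.12 to 9.13 FPKM), CDH1 (2.07 to 3.51 FPKM) and KRT7 (0.644 to 4.15 FPKM) were expressed. Of the 4 mesenchymal markers, VIM, an intermediate filament, was at 1350 to 1700 FPKM, ZEB1 at 15.9 to 23.3 FPKM and FN1 at 3.85 to 7.6 FPKM, while CDH2 was at 0.0331 to 0.149 FPKM. CD3E and CDH5, which mark T cells and endothelium, were listed at 0 in all 6. The fibroblast genes DCN (58.0 to 77.6 FPKM) and LUM (51.7 to 64.5 FPKM) were expressed. The summed level of the 12 markers of other cell types was 333 to 425 FPKM in the untreated group and 294 to 379 FPKM in the GLUP group, with 2 and 3 of them at 0 in all 3 libraries. The summed level of the 8 epithelial markers was 20.7 to 24.8 FPKM in untreated and 18.1 to 20.8 FPKM in GLUP libraries. The part of either sum in the results was not tested.

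Libraries labelled TEAD4KO scattered more widely than WT libraries. The median gene had a standard deviation of log2(FPKM + 1) of 0.142 among untreated and 0.121 among GLUP libraries labelled TEAD4KO, against 0.0673 and 0.0722 in the WT groups. One library of each group stood apart from its group. On the first principal component of the 12 libraries (39.7% of the variance), untreated replicate 1 was at -0.962 and GLUP replicate 16 at -5.26, while the other 4 libraries labelled TEAD4KO were at 9.91 to 19.8 and the WT libraries at -16.2 to -3.71. In an analysis of the 6 libraries alone, the same pair lay at -15.9 and -16.5 and the other 4 at 3.16 to 11.6. The calls over all rows are therefore also given from the 6 libraries alone and without this pair, and list medians without it where they turned sign or a result rests on them.

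**Figure D1:**
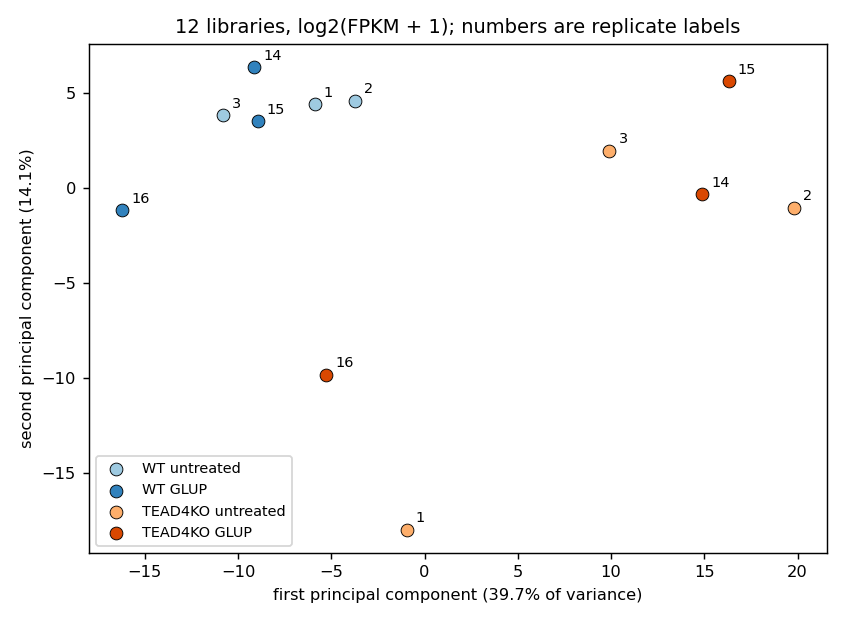
Principal components of log2(FPKM + 1) over 11225 rows in 12 libraries, with the share of variance on each axis, 1 point per library and replicate numbers beside the points. Untreated replicate 1 and GLUP replicate 16 of the libraries labelled TEAD4KO lie apart from the other 4 libraries of that label on the first component, the latter within the range of the WT libraries.

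The transcript response to GLUP was small. Among 11225 rows that averaged 1 FPKM or more over the 12 libraries, 5 passed an adjusted p under 0.05 in a limma model of the 4 groups (0.0445% of rows tested), 4 higher (0.0356%) and 1 lower (0.00891%), and 1 of them also passed a 2-fold change (0.00891%). The 4 higher rows were ETV5, ETV1, RDH10 and TMTC1, and the lower row was the readthrough transcript RPL36A-HNRNPH2. All fold changes were taken from log2(FPKM + 1), so those of low genes are understated. The median absolute log2 fold change was 0.0706 over all rows, 99% of rows lay under 0.439, and 47 rows exceeded 1.5-fold, 25 higher and 22 lower. An unadjusted p under 0.05 was reached by 716 rows (6.38%), 303 higher (2.7%) and 413 lower (3.68%), where 561 are expected with no effect. The 3 GLUP libraries lay wholly above or below the 3 untreated ones in 767 rows (6.83%), 320 higher (2.85%) and 447 lower (3.98%). These shares are the background for the counts of separate or small-p genes given below for each list. With independent noise at the residual spread pooled over the 4 groups, the model found 76% of simulated 1.5-fold and 98% of simulated 2-fold changes. That spread had a median of 0.117, against 0.142 and 0.121 in the untreated and GLUP libraries labelled TEAD4KO. The shares may therefore be too high for this contrast. These are bulk libraries, in which less RNA per cell and fewer cells of a kind cannot be told apart.

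Of the 5 calls, 4 were lost when the WT libraries, whose spread enters the 4-group model, were left out. With only the 6 libraries labelled TEAD4KO, RPL36A-HNRNPH2 kept its call (limma adjusted p = 0.00022). In that fit ETV5 had an adjusted p of 0.47, ETV1 of 0.455, RDH10 of 0.796 and TMTC1 of 0.588. Without untreated replicate 1 and GLUP replicate 16, RPL36A-HNRNPH2 was again the only row that passed (1 row, with 1006 at an unadjusted p under 0.05), and the other 4 had adjusted p of 0.0929, 0.139, 0.119 and 0.0782 in the same order.

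The calls with the smallest p among the higher genes were ETV5 and ETV1. ETV5 and ETV1 are transcription factors of the PEA3 branch of the ETS family, whose own genes are commonly switched on by growth factor signalling through ERK. ETV5 (ENSG00000244405, GRCh37 chromosome 3, 185764103 to 185828107, minus strand) had 11.1, 10.2 and 12.6 FPKM in the untreated libraries and 16.7, 17.4 and 18.3 FPKM in the GLUP libraries. The groups did not overlap, and the difference on the log2 scale reached 0.59 ± 0.08 (SE, n = 3 in each group, adjusted p = 0.0190 by limma). This SE, like the others given for log2 differences, comes from the 4-group model and draws on the spread of the WT libraries. With only the 6 libraries labelled TEAD4KO the SE was larger, at 0.1045 for ETV5 and 0.0847 for RDH10. ETV1 (ENSG00000006468, chromosome 7, 13930854 to 14031050, minus strand) had 6.01, 5.88 and 6.93 FPKM in the untreated libraries and 9.60, 12 and 11.9 FPKM in the GLUP libraries. Its groups did not overlap either, and differed by 0.74 ± 0.11 on the log2 scale (SE, adjusted p = 0.0270 by limma). The third PEA3 factor, ETV4, was at 2.89, 2.96 and 2.81 FPKM against 3.37, 4.30 and 3.04 FPKM. These values did not overlap, but their log2 difference of 0.22 ± 0.13 (SE) did not pass.

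**Figure D2:**
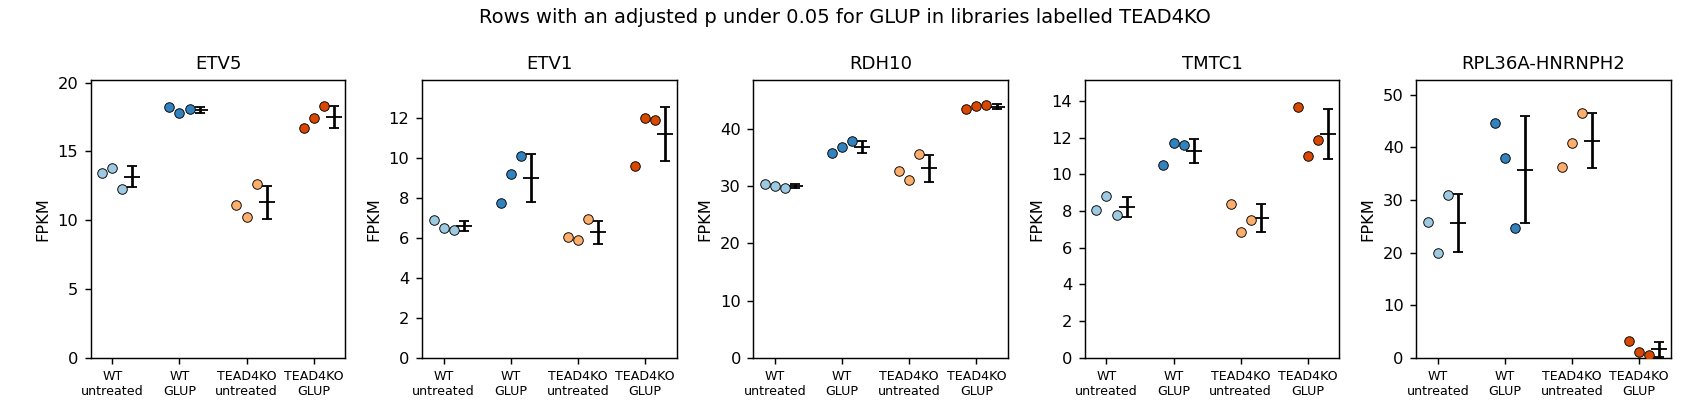
FPKM of the 5 rows with an adjusted p under 0.05, in each of the 12 libraries. Points are libraries and bars the group mean with its SD (n = 3). In the libraries labelled TEAD4KO, GLUP libraries lie above untreated ones for ETV5, ETV1, RDH10 and TMTC1 and below them for RPL36A-HNRNPH2.

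ETV5, ETV1 and ETV4 were also counted in a list with other genes that ERK signalling induces, among them several of its own inhibitors. Of 13 tested members of this list of PEA3 factors and ERK feedback genes, 11 were higher and 2 lower with GLUP. The 2 that passed were ETV5 and ETV1 themselves. GLUP libraries lay wholly above the untreated ones in 8 members, ETV5, ETV1 and ETV4 among them. Of all tested rows, 2.85% lay wholly above. The median log2 fold change of the list was 0.2267, against -0.0172 over all tested rows. These counts and the median include the called genes, so they are not separate evidence beside the calls. The list was also chosen with earlier results of these data known. Without the pair of libraries that stood apart, 12 of 13 were higher and the median was 0.2629, and 10 were higher without overlap, a count of 2 against 2 libraries that 12.8% of all rows met. IL17RD, an inhibitor of FGF receptor signalling, had 2.26, 1.29 and 1.91 FPKM in the untreated libraries and 2.74, 2.93 and 4.31 FPKM in the GLUP libraries (log2 0.62 ± 0.15, SE, limma adjusted p = 0.256). SPRY2, a Sprouty brake on receptor signalling, was at 3.88, 3.75 and 4.36 FPKM against 4.74, 5.17 and 6.19 FPKM (0.34 ± 0.10, SE, adjusted p = 0.410). Neither passed, and in both genes the groups did not overlap. Members at the other end were CCND1 (-0.01 ± 0.09, SE) and DUSP7 (-0.02 ± 0.08, SE). Below the filter, DUSP6, a phosphatase that acts on ERK, was at 0.194 to 0.274 FPKM in untreated and 0.401 to 0.692 FPKM in GLUP libraries. SPRY4 was at 0.316 to 0.586 FPKM and 0.787 to 1.72 FPKM. DUSP4, SPRED3 and EPHA4, also below the filter, overlapped between the groups, and DUSP5 was listed at 0 in both.

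Immediate early genes, which are transcribed within minutes of a growth or stress signal, were mostly higher by smaller amounts. Of 21 tested, 19 were higher and 2 lower, 0 passed, 5 higher and 1 lower had an unadjusted p under 0.05 in limma, and 6 higher and 1 lower did not overlap. Of all tested rows, 2.7% higher and 3.68% lower reached that p, and 2.85% higher and 3.98% lower did not overlap. The median of the list was 0.1417, and without the pair of libraries that stood apart it was 0.1324 with 20 of 21 higher. FOSL1, an AP-1 subunit, had 1.92, 1.04 and 2.80 FPKM in the untreated libraries and 2.83, 3.23 and 3.18 FPKM in the GLUP libraries (log2 0.53 ± 0.17, SE, limma adjusted p = 0.564). IER3 was at 19.2, 18.9 and 20 FPKM against 23.9, 21.5 and 25 FPKM (0.26 ± 0.07, SE, adjusted p = 0.410). JUN was at 13, 14 and 12.2 FPKM against 19, 15.5 and 15.4 FPKM (0.32 ± 0.11, SE, adjusted p = 0.634). None of these 3 groups overlapped, and none passed. KLF4, a factor of epithelial differentiation, went against the list at 3.30, 3.18 and 3.21 FPKM in the untreated libraries and 2.70, 2.25 and 2.82 FPKM in the GLUP libraries (-0.24 ± 0.09, SE, adjusted p = 0.680), and FOS (0.08 ± 0.12, SE) and MYC (0.02 ± 0.06, SE) were close to 0.

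RDH10 and TMTC1 were called without their pathways. RDH10 oxidises retinol to retinal, the first step towards retinoic acid. It had 32.7, 31.1 and 35.6 FPKM in the untreated libraries and 43.5, 44 and 44.3 FPKM in the GLUP libraries, and the groups did not overlap (ENSG00000121039, log2 0.40 ± 0.06, SE, limma adjusted p = 0.0270). Of the 15 tested genes of retinoid metabolism and retinoid receptors, 9 were higher and 6 lower, 1 passed (RDH10 itself), and the median was 0.0376. RARA, a retinoic acid receptor, was at 14.9, 13.7 and 13.3 FPKM against 15.9, 15.7 and 16.1 FPKM, a log2 difference of 0.18 ± 0.06 (SE, adjusted p = 0.651) that did not pass. TMTC1, an enzyme of the endoplasmic reticulum that adds mannose to cadherins, had 8.41, 6.88 and 7.53 FPKM in the untreated libraries and 13.7, 11 and 11.9 FPKM in the GLUP libraries, again without overlap (ENSG00000133687, log2 0.61 ± 0.09, SE, adjusted p = 0.0382). Of 14 tested O-mannosyltransferases and their partners, 5 were higher and 9 lower, 1 passed (TMTC1), and the median was -0.0217. The paralogues TMTC2 (0.11 ± 0.10, SE), TMTC3 (-0.02 ± 0.11) and TMTC4 (-0.14 ± 0.10) did not pass.

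The largest change was in a readthrough row. RPL36A-HNRNPH2 (ENSG00000257529, plus strand of GRCh37 chromosome X from 100645999 to 100667285) names a transcript that starts in RPL36A, a protein of the large ribosomal subunit, and runs into HNRNPH2, an RNA-binding splicing protein. It had 36.3, 40.9 and 46.6 FPKM in the untreated libraries and 3.21, 1.04 and 0.492 FPKM in the GLUP libraries. The groups were far apart, and differed by -4.17 ± 0.30 on the log2 scale (SE, adjusted p = 3.39e-05 by limma). In WT libraries the row had 25.8, 20 and 31 FPKM in the untreated libraries and 44.6, 37.9 and 24.7 FPKM in the GLUP libraries, which overlapped. The difference between the effects in the 2 genotypes was -4.62 ± 0.43 (SE, limma adjusted p = 0.000685) and was the only interaction that passed among 11225 rows (0.00891%), where 284 rows had an unadjusted p under 0.05 (2.53%).

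The genes that the readthrough row overlaps did not fall with it. RPL36A (chromosome X, 100645812 to 100651143) had 293, 362 and 272 FPKM in the untreated libraries and 344, 331 and 297 FPKM in the GLUP libraries, which overlapped (log2 0.08 ± 0.10, SE, adjusted p = 0.962). HNRNPH2 (chromosome X, 100663210 to 100669121) had 27.8, 31.6 and 32.9 FPKM in the untreated libraries and 38.3, 42.5 and 35 FPKM in the GLUP libraries. HNRNPH2 did not overlap between groups, and its log2 difference of 0.32 ± 0.08 (SE, adjusted p = 0.339) did not pass. Because these rows share exons, reads could be assigned to any of them, and their sum was also formed. FPKM was multiplied by transcript length in kb (562 bases for the readthrough row, 761 for RPL36A and 2296 for HNRNPH2 in GENCODE, which need not be the authors' lengths), which gives relative fragment numbers. On this scale the readthrough row went from 23.2 ± 2.90 to 0.888 ± 0.807 (SD, n = 3), a difference of -22.3, and HNRNPH2 from 70.6 ± 6.06 to 88.7 ± 8.63, a difference of 18. The sum of both was 93.8 ± 8.86 untreated and 89.6 ± 8.76 with GLUP, a difference smaller than either SD, and with RPL36A added it was 329 ± 36.3 and 336 ± 25.6. The readthrough row held 6.21% to 8.5% of the 3 rows in untreated libraries, 0.0902% to 0.513% with GLUP and 3.25% to 7.96% in WT libraries. The total over the locus did not differ beyond the spread between libraries, while the readthrough share was lower in every GLUP library labelled TEAD4KO. The SD of the untreated total of 3 rows (36.3) was larger than the readthrough difference, so that total could not show its loss. How reads were assigned between the rows was not tested.

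**Figure D3:**
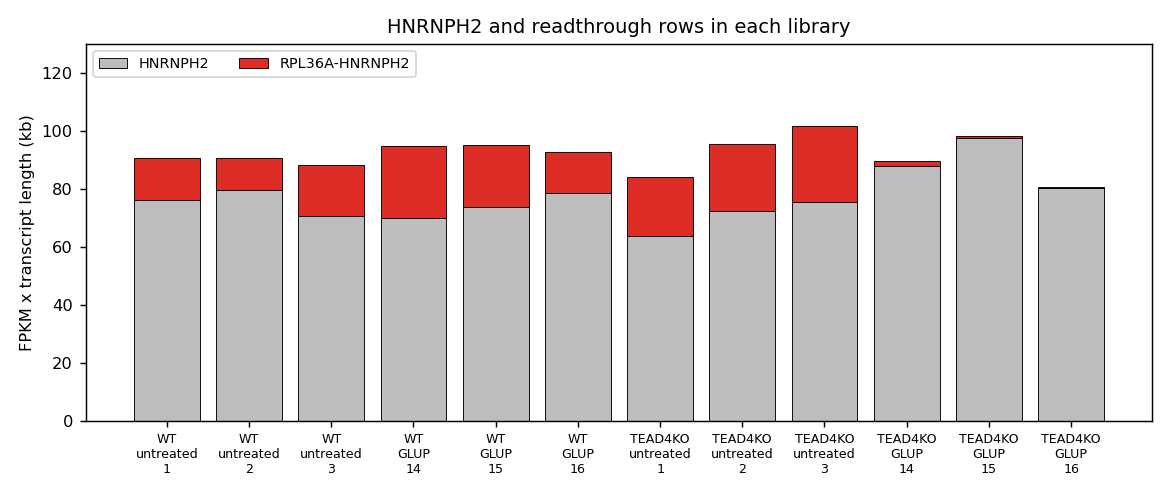
Relative fragment number (FPKM times transcript length in kb) of HNRNPH2 and of RPL36A-HNRNPH2, stacked, in each of the 12 libraries. The readthrough part is 0.888 on average in GLUP libraries labelled TEAD4KO and 23.2 in untreated ones, while the height of the whole bar differs less than its spread.

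Other readthrough rows also carried large and uneven differences. The table held 93 rows whose symbol joins the symbols of 2 other rows, and 29 of them were tested. Of these 29, 5 exceeded 1.5-fold and 2 did not overlap between groups, RPL36A-HNRNPH2 and DNAJC25-GNG10 (log2 -0.50), where 6.83% of all rows did not overlap. The other 28 ranged from -0.74 to 1.43 with a median of -0.0885, and none of them passed. PTGES3L-AARSD1 was the highest of these, with group means of 0.58 FPKM untreated and 4.70 FPKM with GLUP and overlapping libraries. The RefSeq start windows of RPL36A and RPL36A-HNRNPH2 (GRCh38.p14, 250 bases before to 50 after the start) are the same sequence, so a promoter cannot separate them in the table.

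Among secreted signals, DKK1, TGFB2 and BMP4 were higher in every GLUP library without passing over all rows. DKK1, an inhibitor of Wnt signalling that binds its co-receptors, had 98.1, 110 and 119 FPKM in the untreated libraries and 155, 167 and 140 FPKM in the GLUP libraries (ENSG00000107984, log2 0.49 ± 0.08, SE, limma adjusted p = 0.105). TGFB2, a ligand of the TGF-beta receptors and a YAP/TEAD target, was at 12.5, 11.2 and 13.1 FPKM against 16.2, 15.9 and 18.2 FPKM (ENSG00000092969, 0.42 ± 0.08, SE, adjusted p = 0.118). BMP4, a ligand of the BMP receptors, was at 62.4, 61.9 and 62.9 FPKM against 79.6, 80.3 and 72.8 FPKM (0.31 ± 0.07, SE, adjusted p = 0.176). The groups of all 3 ligands were separate, which for DKK1 and TGFB2 was a condition of the rule that named them. DKK1 passed in 3 of 26 alternatives (quantile normalization, and the correction for GC content and transcript length with and without the replicate block, adjusted p = 0.0156, 0.00694 and 0.00915).

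The pathways around these ligands held genes in both directions. Of 24 tested TGF-beta and BMP ligands, receptors and SMADs, 14 were higher and 10 lower, 0 passed (4 at an unadjusted p under 0.05 in limma), and the median was 0.0801. Of them 5 were higher without overlap, TGFB2 and BMP4 included, where 2.85% of all rows were. Without the pair of libraries that stood apart the median was 0.1033. In that fit 11 were higher and 4 lower without overlap, which 12.8% and 17.3% of all rows met. SKIL, a repressor of SMADs that TGF-beta induces, had 8.07, 5.85 and 7.40 FPKM in the untreated libraries and 12, 8.83 and 16.2 FPKM in the GLUP libraries (0.69 ± 0.22, SE, adjusted p = 0.577). Of 25 tested Wnt genes, 11 were higher and 14 lower with a median of -0.0203, which was 0.0221 without the pair of libraries that stood apart, and 0 passed (5 at an unadjusted p under 0.05). SP5, a transcription factor that Wnt induces, had 2.48, 2.46 and 2.29 FPKM in the untreated libraries and 1.51, 1.35 and 0.977 FPKM in the GLUP libraries (-0.59 ± 0.12, SE, adjusted p = 0.160), whereas AXIN2 (0.10 ± 0.10, SE) and NKD1 (-0.12 ± 0.12, SE), which Wnt also induces, overlapped.

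DKK1 and TGFB2 are shown with the 250 bases before their RefSeq start, because the M-CAT element that TEAD factors bind occurs there. The letters searched were CATTCC and its reverse complement GGAATG, given in capitals. Both windows are on the plus strand of GRCh38.p14, DKK1 at chr10:52314031-52314280 and TGFB2 at chr1:218345086-218345335.
DKK1: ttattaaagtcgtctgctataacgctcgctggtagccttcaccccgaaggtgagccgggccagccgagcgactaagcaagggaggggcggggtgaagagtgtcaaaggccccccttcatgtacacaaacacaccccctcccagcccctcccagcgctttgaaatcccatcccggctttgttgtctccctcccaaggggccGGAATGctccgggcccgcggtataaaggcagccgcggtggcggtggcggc
TGFB2: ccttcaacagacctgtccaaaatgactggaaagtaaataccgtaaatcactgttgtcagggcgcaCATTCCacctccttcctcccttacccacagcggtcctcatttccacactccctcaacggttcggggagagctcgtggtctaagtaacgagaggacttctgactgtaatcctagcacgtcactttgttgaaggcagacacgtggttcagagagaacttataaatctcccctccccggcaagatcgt
The DKK1 element starts 50 bases and the TGFB2 element 185 bases before the start. Of 27305 symbols with a window of 300 bases, 16.7% held the M-CAT letters in at least 1 window (14% of all 35116 windows), as did 3 of the 10 matched genes among the 12 higher genes with the smallest p (DKK1, TGFB2 and FILIP1L) and 1 of 8 matched among the 12 lower ones (ZNF584). ETS letters (CCGGAA or its reverse complement) were in 20.1% of symbols (17.2% of windows), in 4 of the 10 (ETV1, DKK1, TRIB3 and FILIP1L) and in 1 of the 8 (ZNF584). In DKK1 the ETS letters share 4 bases with the M-CAT letters. AP-1 letters (TGANTCA) were in 9.37% of symbols (7.71% of windows), in 2 of the 10 (TDO2 and PDGFRA) and in 1 of the 8 (CCDC180). Such matches describe the sequence and do not show a bound site.

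The remaining higher genes with the smallest p were FAM171B, TRIB3, TDO2, PDGFRA, FILIP1L and YAF2, with adjusted p from 0.114 to 0.172. TDO2, which opens the breakdown of tryptophan to kynurenine, had 5.39, 5.33 and 7.14 FPKM in the untreated libraries and 13.6, 9.81 and 8.50 FPKM in the GLUP libraries (log2 0.73 ± 0.14, SE). TRIB3, a pseudokinase induced by the stress factors ATF4 and CHOP, was at 7.19, 7.85 and 7.34 FPKM against 10.5, 10.2 and 9.64 FPKM (0.39 ± 0.07, SE). PDGFRA, the alpha receptor for platelet-derived growth factor, was at 5.10, 5.14 and 5.66 FPKM against 7.17, 7.39 and 6.98 FPKM (0.38 ± 0.07, SE). All 3 had GLUP libraries wholly above the untreated ones, which the rule that named them required. FAM171B (0.48 ± 0.08, SE), FILIP1L, a partner of filamin (0.55 ± 0.11), and YAF2, a subunit of a Polycomb complex (0.41 ± 0.09), were named by the same rule. FAM171B passed in 3 of 26 alternatives, after correction for GC content and transcript length (adjusted p = 0.0275, and 0.0319 with the replicate block) and without untreated replicate 3 (adjusted p = 0.00464, log2 0.59), in which it was at its highest untreated level.

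TRIB3 was not joined by most of its pathway. Of 22 tested genes of the integrated stress response, 15 were higher and 7 lower, 2 were higher without overlap (TRIB3 and DDIT3), 0 passed (3 at an unadjusted p under 0.05), and the median was 0.0455, or 0.0804 without the pair of libraries that stood apart. DDIT3, which encodes CHOP, had 7.66, 9.54 and 11 FPKM in the untreated libraries and 11, 12.3 and 11.2 FPKM in the GLUP libraries (0.28 ± 0.13, SE, limma adjusted p = 0.777). ATF4 itself was at 0.01 ± 0.11 (SE) on the log2 scale. Of 20 genes of the unfolded protein response, 8 were higher and 12 lower, with 0 at an unadjusted p under 0.05 and a median of -0.0149.

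None of the lower genes other than the readthrough row passed. The 11 with the smallest p were ZNF467, HACD1, RSL1D1, EGLN3, DLX3, CETN3, OLR1, SP5, ZNF584, CCDC180 and ENKD1, with adjusted p from 0.114 to 0.211. The homeobox factor DLX3 had 34.9, 31.6 and 33.6 FPKM in the untreated libraries and 27.6, 25.5 and 27.2 FPKM in the GLUP libraries (log2 -0.31 ± 0.06, SE). HACD1, a dehydratase of fatty acid elongation, was at 48.4, 46.5 and 46.6 FPKM against 38.1, 38.6 and 35.3 FPKM (-0.33 ± 0.06, SE). OLR1, a receptor for oxidised LDL, was at 5.69, 5.74 and 5.71 FPKM against 3.48, 3.78 and 4.16 FPKM (-0.48 ± 0.10, SE). In each of these genes the groups were separate, which the rule that named them required. CETN3, a centrin of the centrosome (-0.49 ± 0.10, SE), and the nucleolar protein RSL1D1 (-0.30 ± 0.06) were named by the same rule. ENKD1 had the widest difference (-0.86 ± 0.19, SE) at levels of 3.29 to 4.24 FPKM in untreated and 0.828 to 2.24 FPKM in GLUP libraries.

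Hypoxia and glycolysis genes were mostly below 0 by small amounts. Of 26 tested, 5 were higher and 21 lower, 4 were lower without overlap, 0 passed (4 at an unadjusted p under 0.05 in limma), and the median was -0.0514. EGLN3, an oxygen-sensing prolyl hydroxylase that HIF induces, had 10.6, 11.1 and 13 FPKM in the untreated libraries and 8.80, 8.03 and 8.71 FPKM in the GLUP libraries (-0.40 ± 0.08, SE, adjusted p = 0.153). ADM, which encodes the vasodilator adrenomedullin, was at 41, 35.4 and 35.9 FPKM against 30.8, 30.1 and 34.3 FPKM (-0.23 ± 0.07, SE, adjusted p = 0.532). The glycolytic enzymes ranged from ENO2 at -0.19 ± 0.21 (SE) to PKM at 0.03 ± 0.06. Among them PFKM was lower without overlap (-0.09 ± 0.05, SE, adjusted p = 0.822), and TPI1 (-0.12 ± 0.16, SE), ENO1 (-0.10 ± 0.08), PGK1 (-0.05 ± 0.06) and LDHA (-0.03 ± 0.10) overlapped. Of 17 receptor tyrosine kinases and EGFR ligands, 6 were higher and 11 lower with a median of -0.0364. Without overlap, 1 was higher (PDGFRA, log2 0.38) and 2 were lower, where 2.85% and 3.98% of all tested rows were. FGFR3, a receptor for fibroblast growth factors, had 19.8, 16.9 and 17.9 FPKM in the untreated libraries and 14.4, 12.6 and 15.4 FPKM in the GLUP libraries (-0.34 ± 0.09, SE, adjusted p = 0.339). FGFR2 (-0.29 ± 0.11, SE), FGFR4 (-0.23 ± 0.09) and ERBB2 (-0.23 ± 0.09) had unadjusted p under 0.05 with overlapping libraries.

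Genes of the Hippo pathway did not pass in any role. Among 8 TEAD factors and cofactors, 4 were higher and 4 lower, with a median of 0.0304 and 2 higher and 1 lower without overlap. WWTR1, the gene for TAZ, had 19.3, 16.7 and 20.6 FPKM in the untreated libraries and 24.7, 21.1 and 23.8 FPKM in the GLUP libraries (0.29 ± 0.08, SE, limma adjusted p = 0.467). VGLL4, the competitor of YAP and TAZ, differed by 0.34 ± 0.08 (SE, adjusted p = 0.260), also without overlap. YAP1 was at 33.4, 31.6 and 48.5 FPKM against 34.3, 30.9 and 31.7 FPKM, so that untreated replicate 3 alone was high (-0.19 ± 0.13, SE, adjusted p = 0.918). TEAD1 (0.09 ± 0.09, SE), TEAD2 (0.14 ± 0.09), TEAD3 (-0.09 ± 0.08) and TEAD4 (-0.03 ± 0.06) overlapped between groups, and the sign for TEAD1 and TEAD4 turned in some alternatives.

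The targets of YAP, TAZ and TEAD were divided. Of 20 tested, 12 were higher and 8 lower, with 1 in each direction without overlap, 0 that passed (3 at an unadjusted p under 0.05 in limma) and a median of 0.0241. Beside TGFB2, IGFBP3, which binds insulin-like growth factors, had 129, 145 and 164 FPKM in the untreated libraries and 187, 183 and 163 FPKM in the GLUP libraries (0.29 ± 0.11, SE, adjusted p = 0.670). At the other end F3, the gene for tissue factor, was at 1.92, 1.90 and 1.84 FPKM against 1.20, 1.62 and 1.53 FPKM (-0.24 ± 0.10, SE). The matricellular genes CCN2 (-0.02 ± 0.09, SE) and CCN1 (-0.10 ± 0.08), the receptor kinase AXL (0.16 ± 0.10) and the cyclin CCNA2 (-0.01 ± 0.09) overlapped, with the signs of CCN2 and CCNA2 turning in some alternatives, and CGB5 lay below the filter at 0 to 0.401 FPKM. Of 23 Hippo kinases and upstream regulators, 14 were higher and 9 lower with a median of 0.0159, and none was separate between groups.

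**Figure D4:**
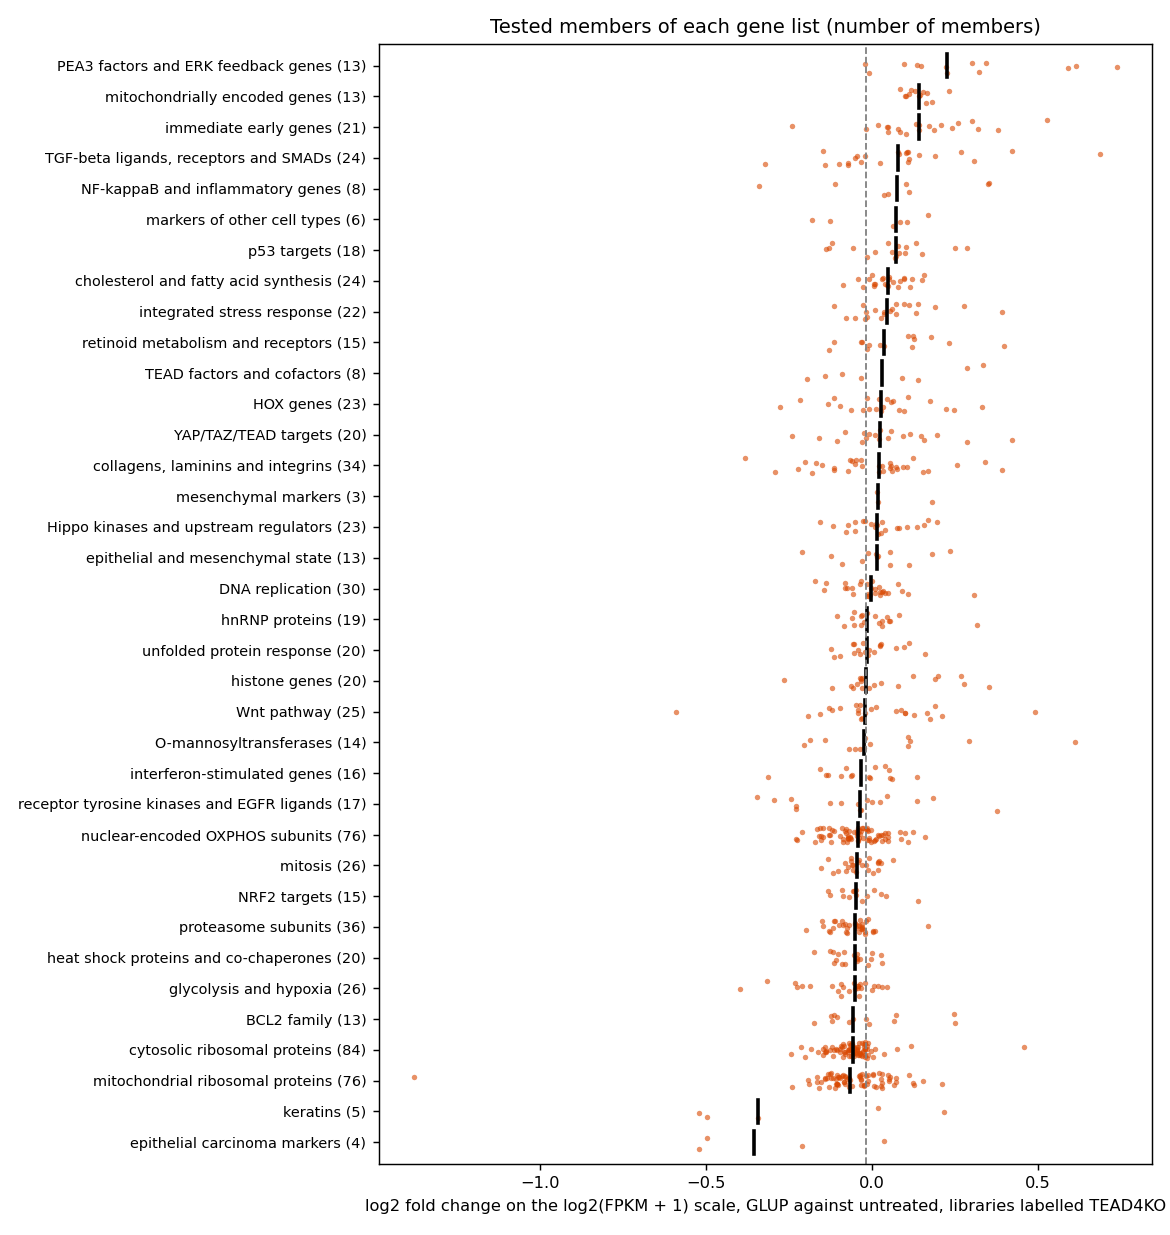
Log2 fold change of each tested member of 36 gene lists with GLUP in libraries labelled TEAD4KO, 1 point per gene and a black bar at the median of the list. The dashed line is the median of all 11225 tested rows (-0.0172). The list of PEA3 factors and ERK feedback genes, which holds the called ETV5 and ETV1, has the highest median (0.2267). The epithelial markers, with 4 members, have the lowest (-0.3540, and -0.1575 without GLUP replicate 14).

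Ribosomal and mitochondrial genes differed by little per gene. All 13 tested genes encoded by the mitochondrial genome were higher, with log2 fold changes from 0.0853 to 0.2340 and a median of 0.1426. MT-ND4L alone was separate, at 6290, 6680 and 6540 FPKM in the untreated libraries and 6730, 7760 and 8550 FPKM in the GLUP libraries (0.23 ± 0.10, SE, limma adjusted p = 0.739). These genes are transcribed together and are not independent, and their median was 0.0000 under quantile normalization and 0.0543 without the pair of libraries that stood apart. Of 76 nuclear genes for subunits of the respiratory chain, 19 were higher and 57 lower (median -0.0406). Of 84 cytosolic ribosomal proteins, 6 were higher and 78 lower (median -0.0553), and that median was 0.0215 without untreated replicate 2 and 0.0245 without GLUP replicate 16, so its sign rests on single libraries. Mitochondrial ribosomal proteins (22 of 76 higher, median -0.0663) and proteasome subunits (4 of 36 higher, median -0.0492) were shifted alike. Across all rows, 43.1% had a log2 fold change above 0, and the fold change had a Spearman correlation of -0.226 with the GC content and 0.197 with the length of the transcript over 11077 genes, which are not independent replicates. After correction for both, the median was -0.0319 for cytosolic ribosomal proteins and 0.1534 for the genes of the mitochondrial genome.

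Keratins and epithelial markers had the lowest medians, on few genes. Of 5 tested keratins, 2 were higher and 3 lower, with a median of -0.3436. KRT8, of simple epithelia, had 8.07, 9.13 and 6.52 FPKM in the untreated libraries and 6.37, 5.21 and 4.12 FPKM in the GLUP libraries (-0.52 ± 0.14, SE, limma adjusted p = 0.389). KRT4, of stratified epithelia, was at 21.3, 21.8 and 20.8 FPKM against 15.4, 17.1 and 17.2 FPKM (-0.34 ± 0.08, SE, adjusted p = 0.240). Both were separate between groups and neither passed. KRT80 was on the other side (0.22 ± 0.08, SE). Without GLUP replicate 14, in which KRT7 was at 0.644 FPKM, the median was -0.0725 for the keratins and -0.1575 for the epithelial markers. Without the filter on low values these medians were 0.0000 and -0.0326. Of 23 HOX genes, 14 were higher and 9 lower (median 0.0297). Without overlap, 3 were higher, HOXB9 (0.33 ± 0.10, SE), HOXA13 (0.25 ± 0.07) and HOXC11 (0.22 ± 0.09), and 1 was lower. Of all tested rows, 2.85% were higher and 3.98% lower without overlap.

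Gene groups for growth, death and defence had medians between -0.0549 and 0.0777. Of 30 DNA replication genes 14 were higher (median -0.0031), and of 26 mitosis genes 7 were higher (median -0.0445), with 1 and 0 at an unadjusted p under 0.05 in limma. Of 18 p53 targets 13 were higher (median 0.0720), of 8 NF-kappaB and inflammatory genes 6 (median 0.0777), of 16 interferon-stimulated genes 6 (median -0.0326), of 15 NRF2 targets 4 (median -0.0463) and of 20 heat shock proteins and co-chaperones 3 (median -0.0493). Of 24 genes of cholesterol and fatty acid synthesis 20 were higher (median 0.0483), of 13 BCL2 family genes 4 (median -0.0549), of 34 collagens, laminins and integrins 18 (median 0.0228), of 19 hnRNP proteins 9 (median -0.0132) and of 20 histone genes 9 (median -0.0175). In an epithelial and mesenchymal state list 8 of 13 were higher (median 0.0153), and the mesenchymal markers (3 tested) and the markers of other cell types (6 tested) had medians of 0.0194 and 0.0746. Of the p53 targets, 3 were higher without overlap (FAS, GDF15 and BBC3), and their median ranged from 0.0197 without untreated replicate 2 to 0.1118 without untreated replicate 1. Without the pair of libraries that stood apart, the median of the p53 targets was 0.1048 with 15 of 18 higher, that of the epithelial and mesenchymal list was 0.0613, and the medians of the BCL2 family (0.0195), hnRNP proteins (0.0146) and histone genes (0.0064) turned positive. The epithelial and mesenchymal list was at -0.0232 without GLUP replicate 14. In these lists 0 genes passed in limma, and each list had at most 3 higher and 2 lower genes at an unadjusted p under 0.05. Members with small p included RELB, an NF-kappaB subunit, at 2.65, 3.31 and 2.97 FPKM in the untreated libraries and 4.10, 4.22 and 3.91 FPKM in the GLUP libraries (0.35 ± 0.10, SE, adjusted p = 0.506).

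The same contrast in WT libraries gives the background to the label TEAD4KO, and it shares no library with it. In WT, 1 row passed (0.00891%), 385 had an unadjusted p under 0.05 (3.43%) and 1945 were separate between groups (17.3%). The difference of effects was tested for every row, and except for RPL36A-HNRNPH2 none of the named genes passed that test (limma adjusted p from 0.533 to 1). In the simulation this test found 46.5% of 1.5-fold and 91.5% of 2-fold differences, so real differences between genotypes could have been missed. ETV5 differed by 0.43 on the log2 scale in WT and 0.59 in libraries labelled TEAD4KO, ETV1 by 0.39 and 0.74, RDH10 by 0.28 and 0.40, and TMTC1 by 0.41 and 0.61. DKK1 had 0.53 and 0.49 and TGFB2 0.41 and 0.42. All 6 genes were higher without overlap in both genotypes. In libraries labelled TEAD4KO, the rule that named DKK1 and TGFB2 required this. The medians in WT were 0.2085 for PEA3 factors and ERK feedback genes and 0.1717 for immediate early genes, but -0.0102 for epithelial markers, -0.1122 for keratins and 0.1105 for interferon-stimulated genes. The difference between genotypes was not tested for lists. Among immediate early genes FOS had 0.45 in WT and 0.08 in libraries labelled TEAD4KO, FOSB 0.55 and 0.19, and KLF4 0.09 and -0.24, and none of these interactions passed (adjusted p = 1 for each). By contrast YAF2 (0.08 in WT), SP5 (-0.03), CETN3 (-0.04), ZNF584 (0.03), CCDC180 (0.02) and ENKD1 (-0.0001) overlapped in WT, although their interactions did not pass (adjusted p = 1 for each).

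**Figure D5:**
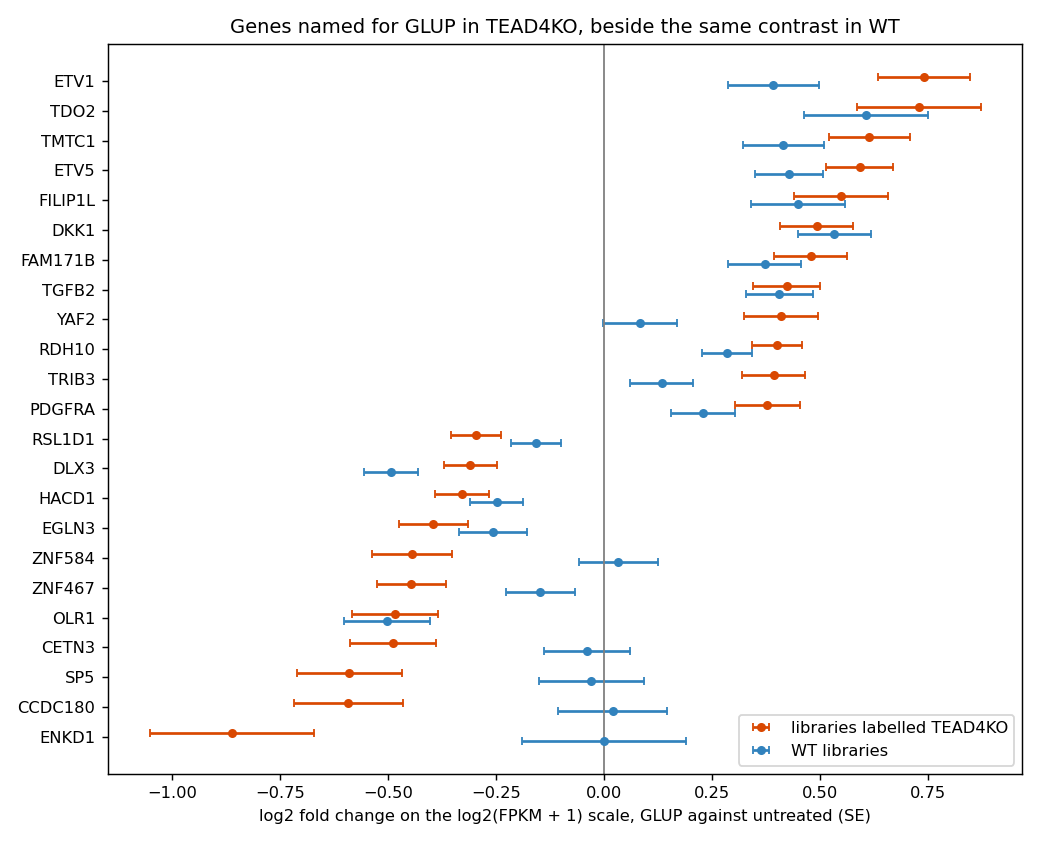
Log2 fold change (points) with its SE (bars) of 23 genes named for GLUP in libraries labelled TEAD4KO, beside the same contrast in WT libraries, with RPL36A-HNRNPH2 left out for scale. ETV1, ETV5, DKK1 and TGFB2 lie to the right of 0 in both genotypes, while ENKD1, CCDC180 and SP5 lie to the left of 0 in the libraries labelled TEAD4KO and within 0.03 of 0 in WT, a difference between genotypes that did not pass.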

How the data were processed

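RNA-seq was analysed from 12 libraries in 4 groups of 3. The authors deposited FPKM values, 1 column per sample and 20345 rows, with no pooling. The submitters' processing notes name HISAT2, Cufflinks, RSEM and hg19, without roles or versions. FPKM keeps differences in GC content, transcript length and composition between libraries. Low values held no whole-read steps (most common ratio 0.755% of rows, against 22.3% in simulated whole reads), so depth is unknown and no count model was used. Columns were matched by title, and 0 pairs were identical.

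Symbols and GRCh37 positions came from reference tables and GENCODE release 44 (96.5% of rows). Rows averaging 1 FPKM or more (11225) were fitted on the scale log2(FPKM + 1) with limma 3.58.1 in R 4.3.3 (4 groups, no covariates, eBayes with trend), two-sided, with Benjamini-Hochberg adjustment. A permutation of 3 against 3 cannot go below p = 0.1 and was not used. The model was tested on simulated data. The members and gene lists were chosen with earlier results of these data known, and no list was tested as a set.

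Named genes are all rows that passed, the 12 higher and 12 lower rows with a symbol, the smallest p and separate groups, up to 2 members per list with an unadjusted p under 0.05, Hippo genes fixed by name, genes under a readthrough row, and 3 interactions per direction. Other list members were chosen after their values were seen. RefSeq windows came from GRCh38.p14.

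The fit was repeated with quantile normalization, median-ratio scaling, array weights, no trend, a pseudocount of 0.1, all 17969 rows above 0, the 8182 rows averaging 5 FPKM or more, rows summed per symbol, only the 6 libraries compared, the replicate number as a block, a correction for GC content and length (splines with 5 degrees of freedom), both together, each library left out, and 2 libraries left out. Replicate numbers come from the titles. Deviations of same-numbered libraries correlated between genotypes at -0.0569, 0.203 and -0.0149 (1 to 3) and 0.106, 0.152 and 0.336 (14 to 16), so the numbers were not taken as pairs, and treated and untreated libraries share none.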

Additional observations from a re-analysis of the deposited data

Results flagged for a closer look

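RPL36A-HNRNPH2 was flagged because its response to GLUP differed between genotypes by a test of the difference itself (-4.62 on the log2 scale, limma adjusted p = 0.000685).

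CD99 was flagged because the GLUP libraries lay on opposite sides of the untreated ones in the 2 genotypes. CD99, a surface glycoprotein whose gene lies in the pseudoautosomal region, is listed in an X and a Y row. The X row had 7.67, 9 and 9.03 FPKM in the untreated libraries and 5.85, 5.59 and 2.77 FPKM in the GLUP libraries in libraries labelled TEAD4KO (log2 -0.78 ± 0.19, SE), and at 4.34, 5.09 and 4.15 FPKM against 6.37, 9.09 and 8.84 FPKM in WT. The interaction of -1.49 ± 0.27 (SE) had a limma adjusted p of 0.533. The Y row went the other way in libraries labelled TEAD4KO. It had 21.6, 22.9 and 14.2 FPKM in the untreated and 27.5, 26.3 and 26 FPKM in the GLUP libraries, without overlap (0.45 ± 0.13, SE). Its interaction of 0.60 ± 0.18 (SE) did not pass. Summed over both rows, CD99 was at 29.2, 31.9 and 23.2 FPKM against 33.4, 31.9 and 28.7 FPKM (0.16 ± 0.10, SE), with an interaction of 0.1150 ± 0.14 (adjusted p = 1). The untreated sums alone ranged from 23.2 to 31.9 FPKM, so the sum could not show a change of the size seen in the X row, in either direction. How reads were assigned between the X and Y rows was not tested.

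MSRB2, a mitochondrial methionine sulfoxide reductase, was flagged for the same reason. It had 3.09, 3.68 and 2.72 FPKM in the untreated libraries and 2.31, 2 and 1.60 FPKM in the GLUP libraries in libraries labelled TEAD4KO (log2 -0.49 ± 0.11, SE), and at 2, 2.18 and 2.07 FPKM against 2.77, 2.54 and 2.91 FPKM in WT. Its interaction did not pass (limma adjusted p = 1).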

How the results depend on the processing

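The number of rows with an adjusted p under 0.05 was 5 and moved to 3 without the trend, to 1 with array weights, to 1 with only the 6 libraries labelled TEAD4KO and to 1 without both libraries that stood apart. It was 1 to 6 when each library was left out in turn. It was 1 without WT untreated replicate 1, WT GLUP replicate 15 or replicates 1, 2, 15 or 16 of the libraries labelled TEAD4KO, 2 without WT untreated replicates 2 or 3, and 3 without WT GLUP replicates 14 or 16. With the replicate number as a block, which the check of pairing did not bear out, it was 4, with TMTC1 at an adjusted p of 0.0609, and with the block and the correction for GC content and length it was 6. In the other alternatives it was 4 to 6. RPL36A-HNRNPH2 passed in all 26 alternatives (adjusted p from 1.51e-06 to 0.00485, log2 from -4.98 to -3.84). ETV5 passed in 11 of 14 alternatives and 6 of 12 fits without 1 library, ETV1 in 10 and 4, RDH10 in 10 and 1, and TMTC1 in 6 and 0, with no change of sign. The counts past 2-fold and for the interaction were 1 throughout.

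Genes near 0 turned sign. With each library left out in turn, TEAD1 ranged from -0.0094 to 0.1704, TEAD4 from -0.0725 to 0.0121, CCN2 from -0.0880 to 0.0637, CCNA2 from -0.1028 to 0.0649 and RPL36A from -0.0090 to 0.1968. TEAD1 was at -0.0094 without untreated replicate 2. TEAD4 was at 0.0050 with array weights, 0.0055 with the correction for GC content and length with or without the block, 0.0117 without untreated replicate 1, 0.0121 without GLUP replicate 16 and 0.0550 without both. CCN2 was at 0.0273 with array weights, 0.0637 without untreated replicate 1, 0.0439 without GLUP replicate 15 and 0.0353 without both libraries that stood apart. CCNA2 was at 0.0042 with median-ratio scaling, 0.0159 with quantile normalization, 0.0121 and 0.0649 without untreated replicates 2 and 3, and 0.0350 without GLUP replicate 16. RPL36A was at -0.0090 without untreated replicate 3. Summing Y copies with X copies, an alternative added after seeing the data, gave CD99 0.1607 and an interaction of 0.1150. Except where a sum or fewer libraries made the change, the cause was not tested. Depth is unknown, and the spread of 3 libraries limits every value.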

Other observations

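ENSG00000188223, which has no symbol in the tables used, was listed at 0 in all 3 untreated libraries labelled TEAD4KO and at 0.874, 1.66 and 3.61 FPKM with GLUP, and at 0.672 to 3.16 FPKM in untreated WT libraries, with a limma adjusted p of 0.260. MRPL30, a protein of the mitochondrial ribosome, had 13.9, 25 and 10.9 FPKM in the untreated libraries and 1.22, 22.3 and 4.09 FPKM in the GLUP libraries, with groups that overlap (log2 -1.38 ± 0.72, SE, adjusted p = 0.822).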
